A study of Homo sapiens with 21 samples.

Results

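HepG2 cells, an established human liver cancer line, were given caffeine for 6 h, and the comparison described here is 100 µM caffeine against the 3 lowest doses, 0.01, 0.1 and 1 µM, pooled as a reference of trace exposure. It holds 12 of the 21 libraries: 3 at 100 µM and 9 trace libraries, 3 from each dose. All groups share the cell line, the wash, the change to serum-free DMEM and the 6 h of exposure, so every library in the comparison comes from cells that received some caffeine. The untreated cells (0 µM), 10 µM and 1000 µM, with 3 libraries each, stayed out of the comparison. They were used to look up the genes found and lists of pathway genes, to scale the levels shown, and in some alternative fits. Polyadenylated RNA was sequenced and counted per gene. The series' design text calls the 3 libraries of a dose biological replicates. HepG2 is 1 tumour-derived line and stands for primary hepatocytes only in part.

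Caffeine is a methylxanthine. It blocks adenosine receptors on the cell surface, and at higher concentrations inhibits cyclic nucleotide phosphodiesterases and checkpoint kinases of the DNA damage response and opens ryanodine receptors, which release calcium from internal stores. The liver clears it by N-demethylation, mainly through CYP1A2. The genes discussed below fall into a few groups: xenobiotic enzymes of the CYP1 family, which the ligand-activated aryl hydrocarbon receptor (AHR) switches on; targets of the tumour suppressor p53, which HepG2 retains in wild-type form; and targets of YAP, a coactivator that binds DNA through the TEAD factors.

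The promoters of 4 genes are shown as examples: CYP1A1 and BMF, which were higher at 100 µM, and CCN2 and ANKRD1, which were lower. Each is 300 bases long, from 250 before to 50 after the RefSeq start site (GRCh38.p14), written 5′ to 3′ on the gene's own strand. Capitals mark GCGTG, the core that AHR binds, in the CYP1A1 and BMF sequences, and GGAATG, the core that TEAD factors bind, in the CCN2 and ANKRD1 sequences.
CYP1A1, chr15:74725479-74725778, minus strand: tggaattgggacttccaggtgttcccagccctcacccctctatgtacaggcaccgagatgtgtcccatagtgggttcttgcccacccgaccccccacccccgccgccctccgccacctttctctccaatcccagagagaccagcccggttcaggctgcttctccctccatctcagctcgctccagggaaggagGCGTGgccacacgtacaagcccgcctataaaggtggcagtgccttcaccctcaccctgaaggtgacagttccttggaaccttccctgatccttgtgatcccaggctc
BMF, chr15:40108830-40109129, minus strand: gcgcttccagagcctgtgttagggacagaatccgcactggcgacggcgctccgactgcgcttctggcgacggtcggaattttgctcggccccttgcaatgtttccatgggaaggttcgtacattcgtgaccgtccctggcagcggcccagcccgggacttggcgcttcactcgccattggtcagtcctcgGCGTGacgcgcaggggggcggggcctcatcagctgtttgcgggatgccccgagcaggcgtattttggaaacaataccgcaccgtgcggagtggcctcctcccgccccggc
CCN2, chr6:131951323-131951622, minus strand: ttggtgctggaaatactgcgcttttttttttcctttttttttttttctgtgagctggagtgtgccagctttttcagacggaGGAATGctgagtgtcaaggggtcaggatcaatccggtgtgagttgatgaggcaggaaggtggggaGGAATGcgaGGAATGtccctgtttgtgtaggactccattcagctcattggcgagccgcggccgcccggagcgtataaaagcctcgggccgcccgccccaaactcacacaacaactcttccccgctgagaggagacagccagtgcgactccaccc
ANKRD1, chr10:90921038-90921337, minus strand: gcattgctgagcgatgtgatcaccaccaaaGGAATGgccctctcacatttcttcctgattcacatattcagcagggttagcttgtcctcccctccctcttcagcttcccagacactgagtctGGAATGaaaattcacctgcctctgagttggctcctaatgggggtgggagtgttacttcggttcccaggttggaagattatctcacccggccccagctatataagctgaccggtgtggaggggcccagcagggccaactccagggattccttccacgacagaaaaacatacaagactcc

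Both cores were searched on both strands, and no copy of one overlapped a copy of the other in the promoters examined. CCN2 held 3 copies of GGAATG, with first bases 169, 104 and 95 bases before the start site, and ANKRD1 held 2, at 220 and 128 bases before it, all on the gene's strand. CYP1A1 held GCGTG once, 57 bases before its start, and BMF once, 60 bases before. Of the 27305 promoters of this length in the RefSeq table, 36.3% held GCGTG and 14.05% held GGAATG. A promoter was found for 18 of the genes past the threshold. GCGTG occurred in 5 of the 7 higher and 5 of the 11 lower genes among them, the lower ones being CDKN1A, OTUB2, NECTIN4, SLC39A10 and KLF6. GGAATG occurred in 0 of the 7 higher and 5 of the 11 lower ones (CCN2, ANKRD1, NAT8, KLHDC7A and SLC39A10). These matches describe letters in a window and no binding was measured.

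At 100 µM, 15 genes were higher and 16 lower than in the trace libraries. The strongest by p was CYP1A1, 2.99-fold higher, followed by the cell death gene BMF, 1.91-fold higher, and the p53 target CDKN1A, which stood at 0.616 times its trace level. The changes were small: 5 of the 31 genes had an absolute log2 fold change of at least 1, and the smallest was 0.39. The 31 genes were 0.182% of the 16991 tested (higher 0.0883%, lower 0.0942%), by the quasi-likelihood F test of edgeR, with p adjusted over all genes tested after Benjamini and Hochberg and a threshold of 0.05. All 31 had their 3 libraries of 100 µM above or below all 9 trace libraries; among all genes tested, 315 (1.85%) lay wholly above and 190 (1.12%) wholly below. The median log2 fold change over all genes was -0.01.

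**Figure D1:**
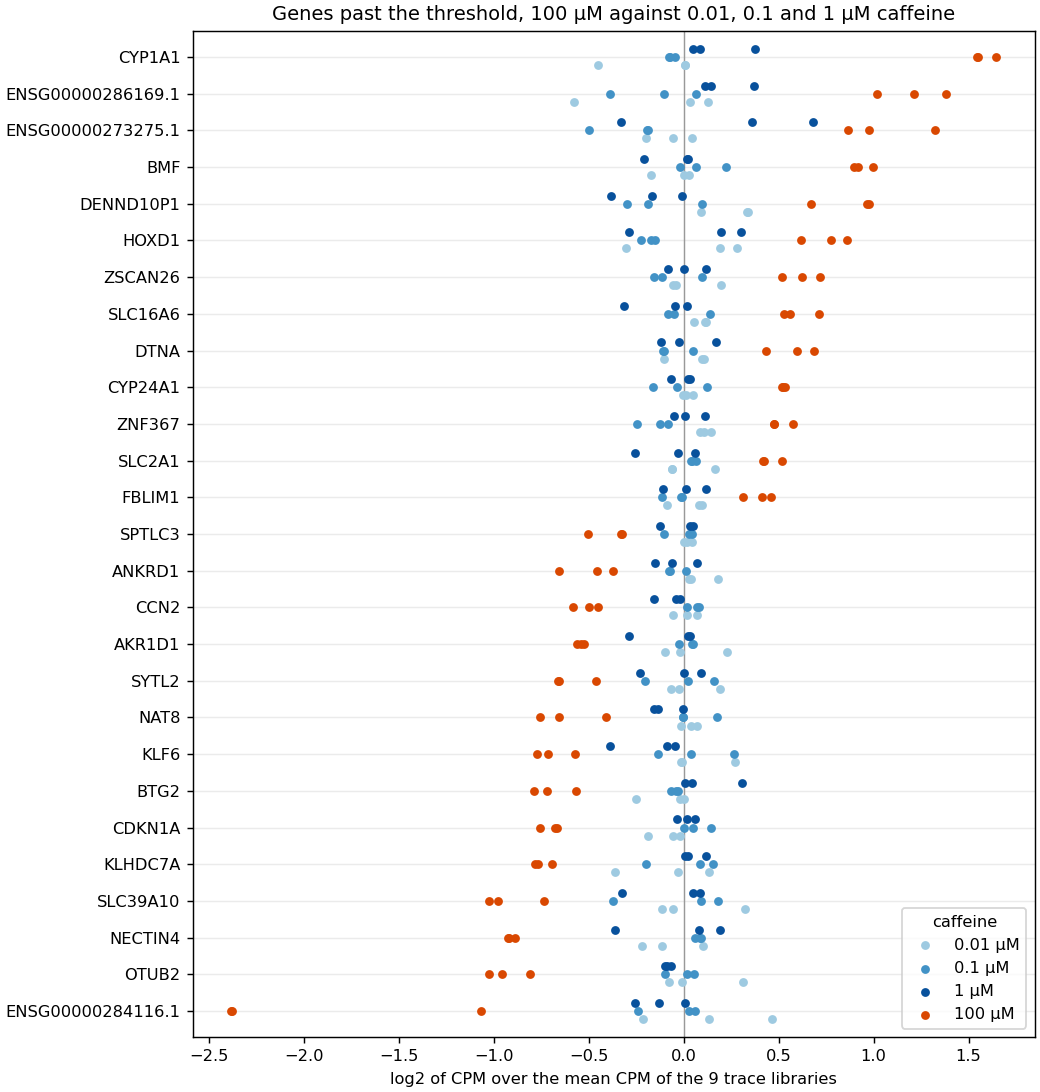
Log2 of each library's CPM (library-scaled counts per 1e6) over the mean CPM of the 9 trace libraries, for 27 of the 31 genes past the threshold; the other 4, among them RPL21P75, which has libraries at 0, and the 2 unannotated features, are not drawn. Points are single libraries, coloured by dose, and in every row the 3 orange points of 100 µM lie outside the range of the 9 blue points.

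The number of genes past the threshold depended on which libraries stood in the reference. With a single trace dose as reference it was 1 against 0.01 µM, 880 against 0.1 µM and 1 against 1 µM, the single gene being CYP1A1 both times; all 31 genes were among the 880. Leaving out any 100 µM library left 3 or 4 genes, leaving out the first 0.01 µM library gave 102, and leaving out the third 1 µM or the third 0.1 µM library gave 41 and 25. Without replicate 2 or 3 of 0.01 µM, or replicate 1 or 2 of 0.1 µM or of 1 µM, the count was 13 to 17. CYP1A1, BMF and CDKN1A passed in all 12 of these fits. OTUB2 failed without 100 µM library 1 or 2, and CYP24A1, NECTIN4, CCN2, KLHDC7A, BTG2, ZSCAN26, SLC39A10 and ENSG00000286169.1 failed without each of the 3 libraries of 100 µM and passed without each of the 9 trace libraries. The remaining genes lost the call without at least 1 trace library as well. SLC16A6 kept it in 7 of the 12 fits and NAT8 in 4. DTNA, DENND10P1, SYTL2, ZNF367 and SPTLC3 kept it in 3. FBLIM1, AKR1D1, KLF6, HOXD1 and ENSG00000273275.1 kept it in 2, and ENSG00000284116.1 in 1. The direction of all 31 was the same in each alternative in which they were tested. DESeq2 on the same counts called 151 genes, 30 of the 31 among them.

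Depth and RNA makeup overlapped between the groups. Total counts were 32386242 to 34401751 at 100 µM and 28043623 to 34717216 in the trace libraries, and mitochondrially encoded genes took 7.27% to 9.68% against 4.96% to 14.2% of counts. The summed level of the liver list did not overlap: 31360 to 32130 CPM at 100 µM against 32890 to 36550 CPM (two-sided exact permutation test, p = 0.0136, adjusted over 8 measures 0.109, 3 against 9 libraries, smallest p possible 0.00455); its part in the results was not tested. Much of that gap came from APOB, at 6782 ± 1128 against 8290 ± 1742 CPM; of the 22 genes of the list 0 were called, 12 had positive and 10 negative values, and the median log2 fold change was 0.02. Summed fibroblast (4.41 to 4.67 against 4.36 to 5.47 CPM), immune (1049 to 1143 against 1039 to 1408) and endothelial (0.35 to 0.497 against 0.279 to 0.914) marker levels overlapped. COL1A2 and COL3A1 were at 0 counts in all 12 libraries, and PTPRC, CD3E, DCN and LUM reached at most 1. The immune list's sum was carried by LYZ (954 to 1323 CPM) and the fibroblast sum by PDGFRB (4.32 to 5.28 CPM). ALB at 4742 to 7140 CPM and AFP at 2064 to 3011 CPM were among the liver genes present. The first 0.01 µM and the third 1 µM library stood farthest from the trace median, with median absolute log2 differences of 0.215 and 0.177 against 0.057 to 0.122 in the others.

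None of the genes passed the same test among the pooled doses. Over 0.01, 0.1 and 1 µM, edgeR called 0 of 16775 genes, with 236 at an unadjusted p under 0.05; DESeq2 called 10. Of the 31 genes, RPL21P75 alone had an unadjusted p under 0.05 in that test. With 3 libraries per dose the test can miss small differences, so it does not show that the trace doses are alike.

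CYP1A1 (ENSG00000140465.14; chr15:74719542-74725610, minus strand, GRCh38), a monooxygenase induced through AHR, was the gene with the smallest p. Its levels at 100 µM were 135, 144 and 134 CPM, against 33.7 to 59.7 CPM with a median of 46.3 in the trace libraries, so the lowest treated library held more than the highest trace library by a wide margin. The log2 fold change was 1.58 ± 0.11 (SE; edgeR adjusted p = 1.573e-05). It was the only gene that passed against each trace dose taken alone. Other AHR response genes did not pass: of the 9 list members tested, 1 was called, 7 had a positive log2 fold change and the list's median was 0.17, against -0.01 over all genes. AHR itself stood at 60.5 ± 6.51 CPM against 64.2 ± 9.43 CPM (SD, n = 3 and 9), and TIPARP, an AHR target that limits its receptor, at 12.04 ± 0.513 against 13.0 ± 2.07 CPM. NFE2L2, which encodes the oxidative stress factor NRF2, lay just outside the threshold with 250.3, 249 and 232 CPM against 185 to 214 (adjusted p = 0.0691). CYP1A2, the main caffeine demethylase of liver, reached only 0.186 to 0.263 CPM at 100 µM against 0.0825 to 0.2995 CPM and, like CYP1B1, which had no count in any of the 12 libraries, and AHRR, was too low to be tested.

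The adenosine receptor genes tested, ADORA2A and ADORA2B, whose products caffeine blocks, did not pass. ADORA2B, the better expressed of them, was at 21.99, 21.4 and 19.6 CPM against a trace range of 16.3 to 21.1 CPM (log2 fold change 0.14, adjusted p = 0.705). ADORA2A spread widely in both groups, 0.757 to 8.20 CPM against 0.357 to 7.48 CPM. ADORA1, at most 0.35 CPM in the 12 libraries, and ADORA3, at most 0.0292 CPM, were too low to be tested. Of the 12 tested genes of adenosine receptors and metabolism and the 13 phosphodiesterases, 0 were called, with medians of 0.03 and -0.04; among cAMP and CREB targets 0 of 15 were called, with a median of -0.10.

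BMF and CYP24A1 followed CYP1A1 among the higher genes by p. BMF (ENSG00000104081.14; chr15:40087890-40108892, minus strand), a BH3-only protein that binds and neutralizes survival members of the BCL2 family, was at 10.7, 10.9 and 11.5 CPM against 4.96 to 6.71 CPM, median 5.83. Every treated library was above every trace library, with a log2 fold change of 0.93 ± 0.09 (adjusted p = 0.0004268). Of the 14 tested members of the BCL2 family, BMF was the 1 called; BAX, a pore-forming member and p53 target, was at 60.6 ± 4.30 against 74.2 ± 11.9 CPM (adjusted p = 0.579). CYP24A1 (ENSG00000019186.10; chr20:54153449-54173973, minus strand), the mitochondrial enzyme that inactivates vitamin D, was at 51.9, 52.4 and 52.1 CPM, with almost no spread, against 32.4 to 39.5 CPM. Its log2 fold change was 0.52 ± 0.07 (adjusted p = 0.004958).

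Most p53 targets lay lower at 100 µM, and CDKN1A and BTG2 fell. CDKN1A (ENSG00000124762.13; chr6:36676460-36687339, plus strand) encodes p21, an inhibitor of cyclin-dependent kinases, and was at 110.4, 111 and 105 CPM against 155 to 195 CPM with a median of 177. The treated libraries were all below the trace range (log2 fold change -0.70 ± 0.08, adjusted p = 0.001189). BTG2, an antiproliferative gene, was at 14.9, 12.7 and 13.4 CPM against 18.5 to 27.2 CPM (log2 fold change -0.69 ± 0.10, adjusted p = 0.0165).

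Of the 24 p53 targets tested, 1 was called higher and 2 lower, 22 had a negative log2 fold change and 7 lay with all 3 libraries below all 9 (1.12% of all genes did). The list's median was -0.25, between -0.31 and -0.19 over the alternatives. An unadjusted p under 0.05 was reached by 10 in the lower direction, while 8.19% of all genes reached it in either. POLH, the translesion polymerase, came nearest to the threshold at 23.2, 21.2 and 23.9 CPM against 27.2 to 33.7 CPM (adjusted p = 0.0576). PHLDA3, a repressor of AKT, was at 37.9 ± 2.06 against 49.6 ± 5.02 CPM, and ZMAT3, an RNA-binding target, at 35.6 ± 0.294 against 46.6 ± 7.07 CPM. MDM2, the ligase that degrades p53, had a log2 fold change of -0.22 ± 0.10, and GDF15, a secreted stress cytokine, had a positive value, 0.18 ± 0.19. These lists were drawn up with earlier results of these data known, so their counts are a description.

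**Figure D2:**
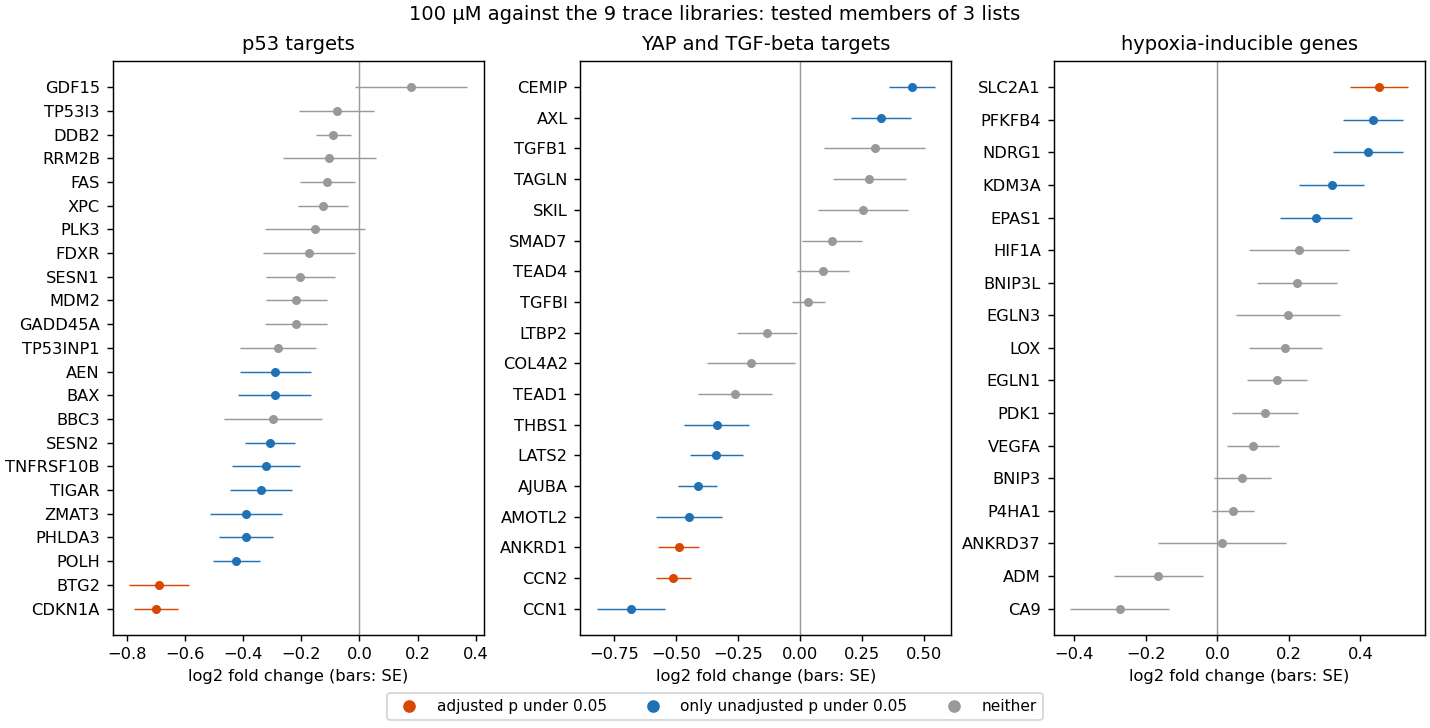
Log2 fold change of 100 µM against the 9 trace libraries, with SE bars, for tested members of the p53, YAP and TGF-beta, and hypoxia lists. On the p53 list 22 genes lie left of 0, the YAP and TGF-beta list spreads to both sides, and 15 of the 17 hypoxia-inducible genes lie right of 0; orange points passed the threshold.

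Among genes driven by YAP, CCN2 and ANKRD1 fell. CCN2 (ENSG00000118523.6; chr6:131948176-131951373, minus strand), a secreted matrix-associated protein formerly called CTGF and the carrier of the 3 GGAATG copies shown above, was at 306, 317 and 289 CPM against 389 to 458 CPM, median 438. The groups did not overlap (log2 fold change -0.51 ± 0.07, adjusted p = 0.009276). ANKRD1 (ENSG00000148677.6; chr10:90912096-90921276, minus strand), a nuclear ankyrin repeat protein, was at 58.3, 55.0 and 47.9 CPM against 68.1 to 85.7 CPM (log2 fold change -0.49 ± 0.08, adjusted p = 0.0402); 9 of the 12 fits that left out a library lost it. CCN1, the close relative of CCN2, had a larger log2 fold change of -0.68 ± 0.14 at 54.4 ± 2.15 against 87.3 ± 13.9 CPM but did not pass (adjusted p = 0.0639), and neither did AJUBA, a LIM protein that restrains LATS kinases (-0.41 ± 0.08, adjusted p = 0.0594), nor AMOTL2, which holds YAP in the cytoplasm (-0.45 ± 0.13, adjusted p = 0.324).

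On the upper side of the same list, CEMIP, a hyaluronan-degrading factor, was at 94.5, 106 and 121 CPM against 68.0 to 90.6 CPM (adjusted p = 0.0721), and AXL, a receptor tyrosine kinase, at 5.76 ± 0.552 against 4.59 ± 0.587 CPM. Of 19 tested members 1 was higher and 2 lower, 9 had positive and 10 negative log2 fold changes, and the median was -0.13, which ranged from -0.22 to 0.03 over the alternatives.

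SLC2A1, the glucose transporter GLUT1, rose to 556, 595 and 556 CPM from 349 to 466.5 CPM (log2 fold change 0.45 ± 0.08, adjusted p = 0.0442), a call that held in 2 of the 12 fits without a library. It is shared by the hypoxia list and the glucose metabolism list. Of the 17 tested hypoxia-inducible genes it was the 1 called, 15 had a positive log2 fold change, 4 lay wholly above the trace range (1.85% of all genes did) and the median was 0.19. PFKFB4, a bifunctional enzyme that sets the rate of glycolysis, was at 32.3, 34.8 and 35.5 CPM against 21.97 to 28.6 CPM (adjusted p = 0.0594), NDRG1 at 26.0 ± 2.18 against 19.4 ± 2.01 CPM and KDM3A, a histone demethylase, at 56.4 ± 1.10 against 45.1 ± 4.53 CPM. CA9 and ADM, both known hypoxia targets, had negative values, -0.27 ± 0.14 and -0.16 ± 0.12 on the log2 scale. PFKFB3, on the glucose list, was at 10.95, 10.7 and 10.3 CPM against 5.81 to 8.38 CPM (adjusted p = 0.0594).

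Other transporters and enzymes moved in both directions. SLC16A6, a monocarboxylate transporter, rose to 13.7, 13.97 and 15.6 CPM from 7.64 to 10.45 CPM (log2 fold change 0.60 ± 0.09, adjusted p = 0.0197). SLC39A10, a zinc importer at the plasma membrane, fell to 29.5, 30.5 and 36.0 CPM from 46.2 to 74.9 CPM (log2 fold change -0.91 ± 0.14, adjusted p = 0.0184). The zinc exporter SLC30A1 and the metallothionein MT1X had positive values without passing, 0.39 ± 0.12 and 0.39 ± 0.15 on the log2 scale, and SLC39A14, another zinc importer, -0.36 ± 0.11. NAT8, an endoplasmic reticulum acetyltransferase, fell to 6.47, 5.45 and 5.09 CPM from 7.73 to 9.71 CPM (log2 fold change -0.60 ± 0.10, adjusted p = 0.0272), and its near-identical neighbour copy makes the assignment of its reads uncertain. AKR1D1, the bile acid pathway enzyme that reduces the steroid ring, fell to 10.3, 10.6 and 10.4 CPM from 12.4 to 17.8 CPM (-0.54 ± 0.10, adjusted p = 0.0451). SPTLC3, a subunit of the enzyme that starts sphingolipid synthesis, fell to 28.3, 25.1 and 28.4 CPM from 32.6 to 36.7 CPM (-0.39 ± 0.07, adjusted p = 0.0494).

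Drug metabolism genes outside the CYP1 family were mostly lower without passing. Of 21 tested, CYP24A1 was called higher and NAT8 lower, 17 had negative log2 fold changes and the median was -0.16. NR1I2, the xenobiotic receptor PXR, was at 16.5 ± 0.930 against 20.1 ± 1.56 CPM (adjusted p = 0.348), and CYP3A5, a cytochrome P450 of drug clearance, at 13.1 ± 0.1397 against 16.7 ± 2.95 CPM (adjusted p = 0.518).

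Further genes fell. OTUB2, a deubiquitinase, fell to 3.18, 3.33 and 3.70 CPM from 6.04 to 8.04 CPM (-0.93 ± 0.11, adjusted p = 0.003411). NECTIN4, an adhesion molecule of epithelial junctions, fell to 4.19, 4.11 and 4.10 CPM from 6.04 to 8.88 CPM (-0.91 ± 0.12, adjusted p = 0.007263). KLHDC7A, a kelch domain protein, fell to 9.76, 9.65 and 10.3 CPM from 12.9 to 18.4 CPM (-0.75 ± 0.11, adjusted p = 0.0156). SYTL2, a Rab27 effector in vesicle transport, fell to 9.47, 9.45 and 10.8 CPM from 12.7 to 17.0 CPM (-0.59 ± 0.10, adjusted p = 0.0442). KLF6, a zinc finger factor counted with the immediate early genes, fell to 73.2, 76.3 and 84.1 CPM from 95.5 to 151 CPM (-0.69 ± 0.12, adjusted p = 0.0458). It was the 1 called of 18 tested immediate early genes, 15 of which had negative values; FOS, with wide spread, was at 24.6 ± 7.47 against 42.4 ± 13.5 CPM.

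Among the higher genes, ZSCAN26, a zinc finger protein, rose to 7.46, 8.57 and 8.01 CPM from 4.67 to 5.96 CPM (0.62 ± 0.09, adjusted p = 0.0165). DTNA, a component of the dystrophin complex, rose to 7.43, 8.31 and 8.85 CPM from 5.06 to 6.20 CPM (0.57 ± 0.09, adjusted p = 0.0262). FBLIM1, an adaptor linking filamin to adhesion sites, rose to 76.3, 84.5 and 81.8 CPM from 56.7 to 66.7 CPM (0.40 ± 0.07, adjusted p = 0.0442). HOXD1, a homeobox factor, rose to 13.5, 12.1 and 14.3 CPM from 6.36 to 9.67 CPM (0.76 ± 0.14, adjusted p = 0.0494), and ZNF367, a zinc finger factor, to 16.4, 15.3 and 15.3 CPM from 9.28 to 12.2 CPM (0.51 ± 0.09, adjusted p = 0.0442).

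Some of the features past the threshold are not protein-coding genes. DENND10P1, a transcribed processed pseudogene, rose to 5.13, 5.16 and 4.19 CPM from 2.02 to 3.32 CPM (0.88 ± 0.16, adjusted p = 0.0442). RPL21P75, a processed pseudogene of a ribosomal protein gene, had 308, 675 and 493 counts against 0 to 119 in the trace libraries, but also 340, 430 and 4 counts at 10 µM and 776, 41 and 669 at 1000 µM, so libraries of 1 dose differed widely; its reads can be shared with the parent gene. Its fitted log2 fold change was 4.66 ± 0.85 (adjusted p = 0.0474), and it lost the call in 9 of the 12 fits without a library. ENSG00000286169.1, with no symbol, rose to 3.47, 4.46 and 3.97 CPM from 1.15 to 2.21 CPM (1.21 ± 0.17, adjusted p = 0.009276). ENSG00000273275.1, an antisense gene, was at 13.1, 16.6 and 12.1 CPM against 4.69 to 10.6 CPM (1.07 ± 0.20, adjusted p = 0.0474). On the lower side, ENSG00000284116.1 rested on 3, 3 and 7 counts against 13 to 18 (-1.78 ± 0.32, adjusted p = 0.0474). The 2 unannotated features fell, 1 to 15.0, 12.2 and 15.8 CPM from 19.6 to 27.9 CPM and the other to 6.38, 6.01 and 5.62 CPM from 7.64 to 9.40 CPM. Strand was not stated for the counting: of the 28 genes past the threshold that GENCODE v29 holds, 5 overlap another gene of the same strand and 13 only one of the opposite strand, including BMF, CDKN1A, OTUB2, NECTIN4 and CCN2.

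The libraries outside the comparison show how these genes stood at the other doses. At 10 µM the mean lay within the trace range for 6 of the 15 higher and 11 of the 16 lower genes, and beyond it on the side of 100 µM for 9 and 5. All 3 libraries at 10 µM were above the whole trace range for 4 higher genes, CYP1A1, CYP24A1, DTNA and ENSG00000286169.1; CYP1A1 was at 69.3, 64.5 and 62.1 CPM. At 0 µM the mean lay within the trace range for 14 of the 15 higher but for 8 of the 16 lower genes; for SLC39A10, SYTL2, SPTLC3 and an unannotated feature it lay below the trace range, toward 100 µM. SLC39A10 was at 43.8, 44.9 and 49.5 CPM without caffeine, against 46.2 to 74.9 CPM at trace doses and 29.5 to 36.0 CPM at 100 µM. SYTL2 had means of 11.2 CPM without caffeine, 14.9 CPM at trace doses and 9.92 CPM at 100 µM. Its untreated libraries, at 10.3, 11.8 and 11.4 CPM, all lay below the trace range of 12.7 to 17.0 CPM. For the unannotated feature, too, all 3 untreated libraries lay below the trace range, and its mean without caffeine, 14.33 CPM, was close to the 14.3 CPM at 100 µM, against 23.9 CPM at trace doses. CDKN1A lay the other way, at 195, 207 and 188 CPM without caffeine, with a mean above the trace range.

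At 1000 µM, 21 of the 31 genes had a mean farther from the trace mean than at 100 µM. CYP1A1 reached a mean of 622 CPM, BMF 48.6 CPM and CYP24A1 148 CPM, which were 4.52, 4.42 and 2.83 times their levels at 100 µM. For some of the 21, the means at 1000 µM and 100 µM were close. CCN2 had 299 CPM at 1000 µM and 304 CPM at 100 µM, OTUB2 3.39 and 3.40 CPM, and SYTL2 9.91 and 9.92 CPM. HOXD1, outside the 21, had 13.1 and 13.3 CPM. ZNF367 was within the trace range again, 11.5 CPM against 15.7 CPM. The genes were chosen for their difference at 100 µM, so these levels are a description.

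**Figure D3:**
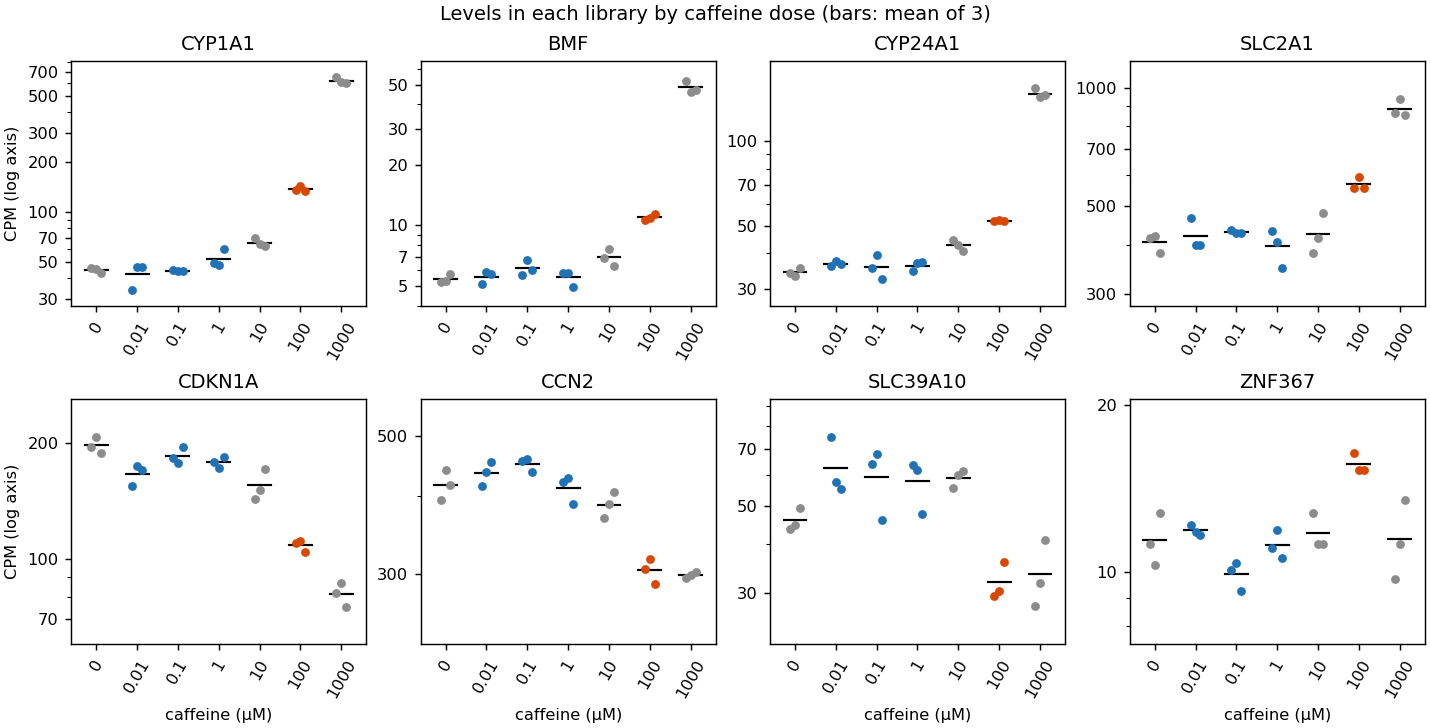
CPM on a log axis in each library at the 7 doses, for 8 genes; horizontal bars are means of 3, blue marks the trace doses, orange 100 µM and grey the doses outside the comparison. CYP1A1, BMF, CYP24A1 and SLC2A1 climb further at 1000 µM, CCN2 and SLC39A10 stay near their 100 µM level, and the mean of ZNF367 is highest at 100 µM.

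The comparison of 1000 µM with 0 µM shares no library with that of 100 µM with the trace doses. There, 7094 of 16249 genes (43.7%) passed the same test, and 26 of the 31 did, all 26 in the same direction, 14 higher and 12 lower; 20 of the 31 had the larger log2 fold change there. KLHDC7A fell by 2.25 on the log2 scale at 1000 µM, NECTIN4 by 2.33 and NAT8 by 1.43. The other 5 genes did not pass: ZNF367 (0.02 ± 0.15), KLF6 (-0.16 ± 0.09), SYTL2 (-0.15 ± 0.11), ENSG00000284116.1 (-1.03 ± 0.61) and an unannotated feature (0.10 ± 0.12). That feature had the opposite sign at 100 µM against the trace doses, -0.74. Against 10 µM in place of 0 µM, 2613 of 16329 genes (16.0%) passed, and 24 of the 31, all 24 in the same direction.

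**Figure D4:**
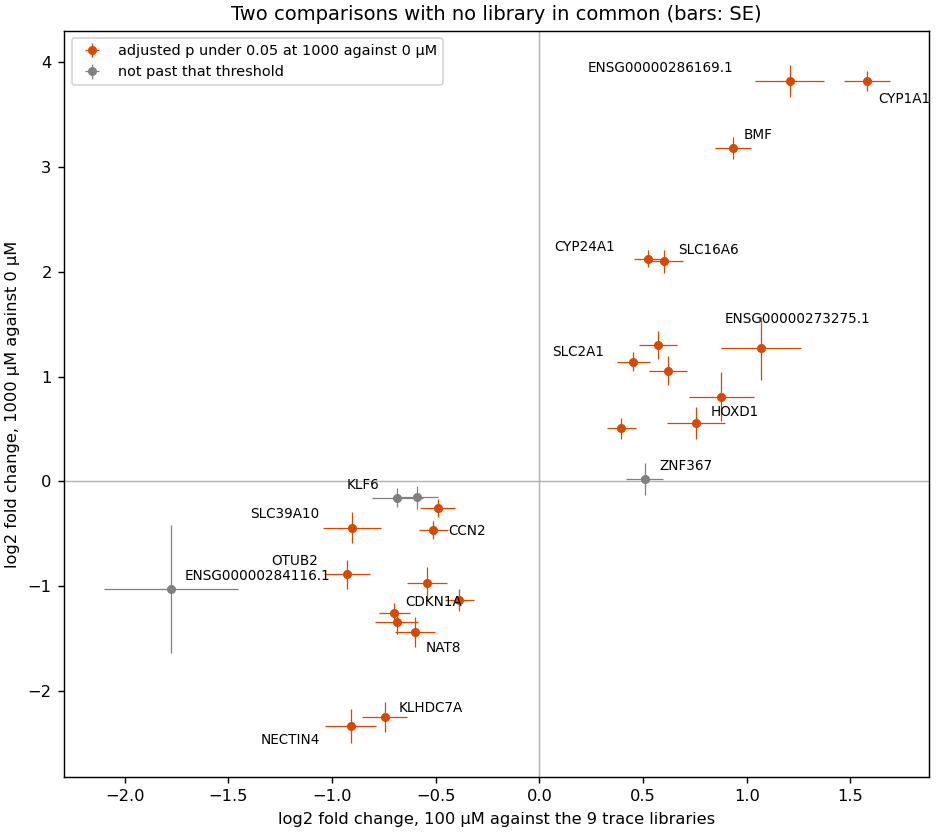
Log2 fold change at 100 µM against the 9 trace libraries (x axis) and at 1000 µM against 0 µM (y axis), with SE bars, for 27 genes past the threshold of the former comparison; the other 4, among them RPL21P75 and the 2 unannotated features, are not drawn. Orange genes also passed at 1000 µM; ZNF367, KLF6 and SYTL2 lie near 0 on the y axis.

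Several pathways that changed in many genes at 1000 µM against 0 µM had no gene past the threshold at 100 µM. Of 24 sterol synthesis genes, 0 were called at 100 µM, with a median of 0.03, and 18 were lower at 1000 µM against 0 µM, where 21.0% of all genes tested were lower and 22.6% higher. At 1000 µM against 10 µM some sterol genes passed (MVK, log2 fold change -0.92, edgeR adjusted p = 0.00288). Others did not (CYP51A1, -0.07, edgeR adjusted p = 0.84). Of 39 ribosomal protein genes, 0 were called at 100 µM, with a median of -0.07. At 1000 µM against 0 µM, 28 of them were lower, beside the same 21.0% of all genes. At 1000 µM against 10 µM, where 16.0% of all genes passed, their values took both signs. The smallest edgeR adjusted p among them was then 0.0793 (RPL35, log2 fold change -0.56). Of 19 tested NRF2 targets, 0 were called, with a median of 0.06, and 12 were higher at 1000 µM, beside 22.6% of all genes. The 13 tested BMP and SMAD targets had a median of 0.27 and 11 positive values with 0 called; 10 were higher at 1000 µM, where 22.6% of all genes were. ID1, an inhibitor of differentiation induced by BMP signals, was at 455 ± 49.4 against 346 ± 67.0 CPM (adjusted p = 0.543). The difference between the 2 comparisons was not tested. DNA replication and mitosis lists, 26 genes each, had 0 called, with medians of 0.08 and 0.03.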

How the data were processed

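Polyadenylated RNA of HepG2 cells was sequenced from 7 caffeine doses with 3 libraries each. The authors deposited 1 table of raw counts per gene; of its 42 per-sample columns, 21 have names matching no sample of the series and stayed out. Per the submitters' processing notes, HISAT2, DESeq2 and GRCh38 were used; the counting program, annotation and strand setting are not given in the sources used here. The series' design text names another compound for the control, and the sample labels, which give 0 µM caffeine, were followed.

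From the deposited counts, edgeR 4.0.16 (R 4.3.3; limma 3.58.1 installed with it) compared the 3 libraries of 100 µM with the 9 trace libraries in a 2-group quasi-likelihood fit of these 12 libraries, with TMM scaling, a filter (filterByExpr, minimum count 10) and Benjamini-Hochberg adjustment at 0.05. SE is the absolute log2 fold change over the square root of F. CPM shown uses TMM factors of all 21 libraries. The code was tested on simulated data. Of 37637 features, 4700 are unannotated, 32338 were found in GENCODE v29 (GRCh38) and 24852 Ensembl IDs had a symbol; 569 of 585 list genes were in the table. Alternatives were DESeq2 1.42.0, other scalings, filters, references, models, a mitochondrial covariate and leaving out each library.

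Named genes were those past the threshold with separated groups, the 12 largest changes each way, the 5 smallest p, list members past the threshold and a fixed set around AHR, adenosine receptors, BMF, CYP24A1 and CDKN1A. A gene included in the counts is not reported here and is not drawn in the figures. Members of the fixed lists that did not pass were named after their values were seen. The comparison and all 31 lists were chosen with earlier results of these data known.

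Totals of 28043623 to 34717216 counts set the precision: 3 counts correspond to 0.0864 to 0.107 CPM. Libraries of a dose differed by more than counting noise (chi-square per gene 5.46 to 207), and each was counted as 1 sample. Same-numbered libraries of different doses correlated between -0.412 and 0.395, with 10 of 18 pairs over 0.1. Differently numbered pairs ran from -0.433 to 0.487, and a smaller share of them lay over 0.1. These values do not settle whether the numbers mark pairs. The main fit did not treat them as pairs, and a fit with the number as a block called 25 genes, 23 of them among the 31.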

Additional observations from a re-analysis of the deposited data

Results flagged for a closer look

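The spread of each named gene and library measure over the 9 trace libraries was screened for a single library far from the others, by the gap to its nearest neighbour over the whole range, and 4 of 43 values stood out. The cutoff flags about 1 in 20 for independent, normally distributed values. These values share libraries and are mostly genes called against them, so that rate need not hold and the count is a description. OTUB2 was at 8.04 CPM in the first 0.01 µM library and at 6.04 to 6.71 CPM in the other 8 trace libraries; BTG2 was at 27.2 CPM in the third 1 µM library and at 18.5 to 22.6 CPM in the others. RPL21P75 was at 3.82 CPM in the second 1 µM library against 0 to 0.593 CPM, and ENSG00000284116.1 at 0.627 CPM in the second 0.01 µM library against 0.381 to 0.50 CPM.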

How the results depend on the processing

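Of the 31 genes past the threshold, each kept its direction in every alternative in which it was tested. The count was 151 with DESeq2 (30 shared), 29 with RLE scaling, 24 without scaling, 19 without a filter, 33 with at least 10 counts in every library, 8 at an adjusted p under 0.01, 5 with a log2 threshold of 1, 21 with 4 dose groups, 82 in a fit of all 21 libraries and 67 with the mitochondrial share as covariate. It was 1 against 0.01 µM alone, 880 against 0.1 µM alone, 1 against 1 µM alone, 16, 4 and 14 without 0.01, 0.1 and 1 µM, and 55 and 58 with 0 µM or 10 µM added; leaving out 1 library gave 3 to 102. With the replicate number as a block it was 25, of which 23 were shared. SYTL2, ZNF367, DENND10P1, AKR1D1, KLF6, SPTLC3, ENSG00000284116.1 and an unannotated feature lost the call in that fit (edgeR adjusted p 0.051 to 0.074). Of 12 libraries, 5 correlated best with their own number. The cause of these differences was not tested.

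Among the trace doses, 0 genes became 10 with DESeq2 and 14 without a filter, stayed 0 with the block, and were 0 to 1 with a library left out. At 1000 µM against 0 µM, 7094 became 3977 at an adjusted p under 0.01 and 2613 with 10 µM as reference, an alternative chosen after seeing the data; the block gave 6627 and leaving out a library 4749 to 7728. AHR turned to 0.061 against 0.1 µM alone, and ADORA2A to -0.18 against 0.01 µM alone and -0.15 to 1.29 with a library left out. The difference in mitochondrial share, 0.124 percentage points, ranged from -0.594 to 0.884 with a library left out. The 3 libraries at 100 µM limit what small changes can pass.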

Other observations

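Just outside the threshold stood genes of other functions, with all 3 libraries of 100 µM above the trace libraries. IGFL4, an insulin growth factor-like gene, had a log2 fold change of 0.54 ± 0.10 (edgeR adjusted p = 0.0510), IFT46, a component of ciliary transport, 0.43 ± 0.08 (0.0510) and CXXC5, a zinc finger protein, 0.55 ± 0.11 (0.0594). ALAS1, which starts heme synthesis, had 0.33 ± 0.07 (0.0657) and ACSL3, an acyl-CoA synthetase of lipid droplets, 0.35 ± 0.07 (0.06). These genes were chosen after their values were seen.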
